A study of Mus musculus with 8 samples.

Results

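Interferon response and antigen presentation genes were followed in a shin muscle, the tibialis anterior, of C57BL/6 mice (male, 8 weeks old). Of 47 listed genes, 36 were measured, out of 14860 genes on the array. A gene counted as measured where a probe set was annotated to its symbol alone, and where several were, the probe set of highest mean level was taken. The 36 comprise 23 of 30 type I interferon targets, 8 of 10 interferon-gamma targets and 5 of 7 antigen presentation genes. The other 11 have no value here. Ifit3, Oas1a, Oas3, Gbp6, Igtp and Ciita share their probe sets with other genes, and Isg15, Usp18, Ifi44, Xaf1 and Nlrc5 were not found among the annotated probe sets.

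The ATF4-labelled group is 4 right muscles electroporated with 25 µg of pCMV-ATF4-FLAG, a plasmid that drives FLAG-tagged ATF4 from a viral promoter active in most cell types. The empty vector group is 4 left muscles of the same mice electroporated with 25 µg of pcDNA3. All muscles of both groups therefore received plasmid DNA by electroporation, and no untreated muscle was analysed here. RNA was taken on day 11 from fed mice, and each of 4 experiments gave 1 array of either kind. The sources used here do not say whether an experiment pooled mice, and the leg is the same for every array of a group, so leg and plasmid cannot be told apart.

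Values are log2 expression levels, and every difference is ATF4-labelled minus empty vector on the log2 scale, so that 1 is a 2-fold difference. Differences were tested with limma over all 16755 probe sets, with the experiment as a block and Benjamini-Hochberg adjustment over all of them. The Atf4 probe set stood at 6.65, 6.56, 6.72 and 6.18 in ATF4-labelled muscles of experiments 1 to 4, against 6.42, 6.24, 6.48 and 6.23 in empty vector muscles (mean difference 0.18, SE 0.11, adjusted p = 0.846). It was not higher in the ATF4-labelled muscle of experiment 4, where the difference was -0.05, and was 0.24, 0.31 and 0.24 in experiments 1 to 3. The stretch of the transcript it covers is not known here. The mean of 11 muscle fibre genes was 9.92 to 10.18 in ATF4-labelled muscles and 10.01 to 10.16 in empty vector muscles, against array medians of 4.29 to 4.44. No filter on low values was used. The probe sets of the 36 genes lay at the 21.2 percentile of signal or above, with a median at the 85.3 percentile, and 2 of them, Mx1 and Mx2, lay below the 25 percentile.

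Interferons are secreted proteins that warn cells of infection. Type I interferons signal through the receptor pair Ifnar1 and Ifnar2 to a complex that holds Stat2 and Irf9, binds interferon-stimulated response elements and turns on genes that sense and block viruses. Interferon-gamma, made by T cells and natural killer cells, signals through Ifngr1 and Ifngr2, induces the transcription factor Irf1, and turns on guanylate-binding proteins, immunity-related GTPases, T cell-attracting chemokines and the machinery that loads peptides onto MHC molecules. Many genes answer to both, so the division into type I and interferon-gamma targets is one of emphasis. Skeletal muscle fibres carry little MHC class I at rest and more under inflammation.

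The interferon-gamma targets stood lower in the ATF4-labelled muscle than in the opposite leg for 7, 7, 7 and 8 of the 8 genes in experiments 1 to 4, and by the most in experiment 4. Over all probe sets the shares below 0 were 51.9%, 49.8%, 47.4% and 42.8%. All 8 had a negative mean difference, as did 45.5% of all probe sets, and their median was -0.95 against 0.02 over all probe sets. The class median was -0.28, -0.29, -0.18 and -2.82 in experiments 1 to 4, against -0.01, 0.00, 0.01 and 0.08 over all probe sets. In experiment 4, 7 of the 8 were past 2-fold lower, as were 1.87% of all probe sets. For 6 of the 8 (Irgm1, Gbp2, Gbp3, Gbp7, Cxcl9 and Cxcl10) the ATF4-labelled muscle was lower in 4 of 4 experiments, as for 6.64% of all probe sets. By limma, 0 of the 8 passed the adjusted threshold of 0.05, against 0.0179% of probe sets, and 5 were lower at an unadjusted p under 0.05, as were 2.77% of probe sets. The genes of all 3 classes were chosen with earlier results of these data known. Their counts beside shares of all probe sets are thus a description and not an independent check. In bulk tissue, fewer cells of a type and less RNA per cell cannot be told apart.

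The 4 GTPases of this class were lower in 4 of 4 experiments. Irgm1, an immunity-related GTPase of mouse that acts on vacuoles holding pathogens, stood at 6.32, 6.81, 7.78 and 4.57 in ATF4-labelled muscles of experiments 1 to 4, against 7.19, 7.50, 7.81 and 8.42 in empty vector muscles. Experiment 4 held both the lowest and the highest of the 8 levels, while the pair of experiment 3 differed by only -0.04. Irgm1 averaged 6.37 ± 1.34 in ATF4-labelled muscles and 7.73 ± 0.52 in empty vector muscles (SD, n = 4 each), and the mean difference was -1.36 (SE 0.53, 95% interval -2.59 to -0.14, n = 4 pairs, limma adjusted p = 0.796). The ranges of the groups overlapped, and in experiment 4 the level was 14.4-fold lower.

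Gbp2, a guanylate-binding protein that coats and disrupts pathogen membranes, stood at 5.79, 6.39, 6.998 and 4.25 in ATF4-labelled muscles, against 6.38, 6.90, 7.28 and 7.63 in empty vector muscles. The ATF4-labelled muscle was below the opposite leg each time, with differences of -0.60, -0.51 and -0.29 in experiments 1 to 3 and -3.38 in experiment 4. The mean difference of Gbp2 was -1.19 (SE 0.46, 95% interval -2.26 to -0.13, limma adjusted p = 0.796), and the groups overlapped.

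Gbp3, of the same family, stood at 5.98, 6.35, 6.71 and 4.61 in ATF4-labelled muscles, against 6.41, 6.70, 7.04 and 7.23 in empty vector muscles. Its differences in experiments 1 to 3 were close to one another, at -0.43, -0.35 and -0.33, beside -2.61 in experiment 4 (mean -0.93, SE 0.36, limma adjusted p = 0.796). Gbp7 stood at 6.78, 6.61, 7.20 and 4.90 in ATF4-labelled muscles, against 7.07, 7.64, 7.45 and 7.93 in empty vector muscles. It was the 1 gene of the 36 past 2-fold lower in an experiment other than 4, with -1.03 in experiment 2, where 1.46% of probe sets were past it (mean -1.15, SE 0.41, limma adjusted p = 0.786). In both genes the ATF4-labelled array of experiment 4 was the lowest of the 8 and the empty vector array of experiment 4 the highest. The guanylate-binding proteins are close relatives, and cross-hybridisation between their probes was not tested, so Gbp2, Gbp3 and Gbp7 may not be 3 independent readings.

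The 2 chemokines of the class were lower in 4 of 4 experiments, and their groups overlapped. Cxcl9, which draws activated T cells through the receptor Cxcr3, stood at 6.86, 7.57, 8.49 and 4.52 in ATF4-labelled muscles, against 7.10, 7.75, 8.57 and 7.90 in empty vector muscles. In experiments 1 to 3 it differed by -0.24, -0.19 and -0.07 (mean -0.17, SE 0.08), and in experiment 4 by -3.38, or 10.4-fold lower (mean -0.97, SE 0.50, limma adjusted p = 0.846). Cxcl10, a ligand of the same receptor, stood at 5.66, 6.46, 6.89 and 5.26 in ATF4-labelled muscles, against 5.92, 6.63, 7.27 and 6.75 in empty vector muscles. Its mean difference was -0.58 (SE 0.21, 95% interval -1.07 to -0.08, limma adjusted p = 0.789), and in experiment 4 it was 2.80-fold lower.

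The 2 transcription factors of the class had smaller mean differences than the GTPases. Irf1, which interferon-gamma induces and which carries the signal on, differed by -0.13, -0.22, 0.00 and -1.20 in experiments 1 to 4. Irf8, a factor of myeloid cells and B cells, differed by 0.00, 0.04, -0.10 and -0.23, and its mean difference, -0.07, was the smallest of the class. In experiment 4 Irf1 was 2.30-fold lower.

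**Figure D1:**
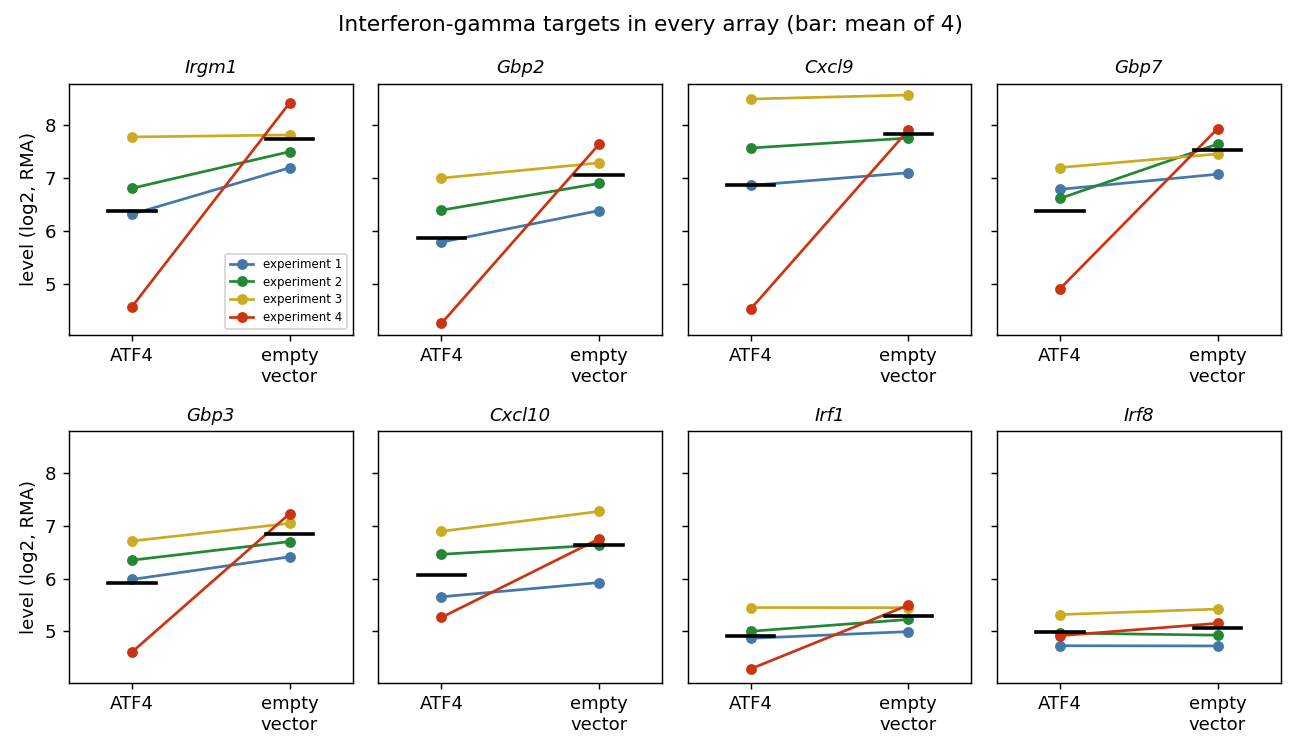
Levels (log2, RMA) of the 8 interferon-gamma targets in ATF4-labelled muscles, left, and empty vector muscles, right. Lines join the arrays of an experiment and black bars are means of 4. The line of experiment 4 is the steepest in all 8 panels, led by Irgm1 with 4.57 in the ATF4-labelled muscle and 8.42 in the empty vector muscle, and Irf8 is close to flat.

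Experiments 1 to 3 were also fitted alone. All 8 interferon-gamma targets then had a negative mean difference, as did 50.2% of all probe sets. Their median was -0.32, against -0.95 with all 4 experiments and -0.00 over all probe sets in experiments 1 to 3. Gbp2 differed by -0.46 (SE 0.10, 95% interval -0.71 to -0.22, limma adjusted p = 0.624), and the mean differences of Gbp3, Gbp7 and Irgm1 were -0.37, -0.52 and -0.54. Of the 8 genes, 5 were lower at an unadjusted p under 0.05 (Gbp2, Gbp3, Gbp7, Irgm1 and Cxcl10), as were 2.68% of probe sets. By limma, 0 of 8 passed after adjustment, and so did 0% of all probe sets. Irf1 lay at -0.12 (SE 0.11).

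The regions around the transcription starts of these genes were searched for the elements through which interferon factors are known to act. Of the 36 measured genes, 27 had a promoter window in the RefSeq table for GRCm38.p6, which runs from 250 bases before to 50 after a start. The core of the interferon-stimulated response element was searched on both strands as GAAA, any 2 bases, then GAAA. It was in a window of 13 of the 27 genes, namely 5 of 8 interferon-gamma targets, 7 of 16 type I targets and 1 of 3 antigen presentation genes. Among all 27025 genes with a window 3.99% held it, and among all 32851 windows 3.44%. The core of the gamma-activated site, TTCNNNGAA, which reads the same on either strand, was in 6 of the 27 genes, 3 of them interferon-gamma targets (Gbp7, Irf1 and Irf8), against 9.55% of all genes with a window and 8.30% of all windows. The listed genes are known interferon targets, so these shares describe the list, and a match is not a bound site.

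Sequences are shown for the 2 genes of the interferon-gamma class and the 2 of the type I class with the largest single-experiment differences among those with a match, to show where the element lies in genes of both classes. They lie at chr11:48871371-48871670 on the minus strand for Irgm1, chr3:142620413-142620712 on the plus strand for Gbp2, chr2:62646206-62646505 on the minus strand for Ifih1 and chr7:102565433-102565732 on the minus strand for Trim21 (GRCm38.p6). Each is given 5′ to 3′ along the gene, with the matches to this core, on either strand, in capitals.
Irgm1: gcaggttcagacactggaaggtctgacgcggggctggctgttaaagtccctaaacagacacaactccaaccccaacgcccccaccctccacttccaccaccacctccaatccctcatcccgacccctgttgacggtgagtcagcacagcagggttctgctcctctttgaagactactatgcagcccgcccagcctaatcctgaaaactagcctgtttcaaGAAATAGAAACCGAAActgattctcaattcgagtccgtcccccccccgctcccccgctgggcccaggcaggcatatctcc
Gbp2: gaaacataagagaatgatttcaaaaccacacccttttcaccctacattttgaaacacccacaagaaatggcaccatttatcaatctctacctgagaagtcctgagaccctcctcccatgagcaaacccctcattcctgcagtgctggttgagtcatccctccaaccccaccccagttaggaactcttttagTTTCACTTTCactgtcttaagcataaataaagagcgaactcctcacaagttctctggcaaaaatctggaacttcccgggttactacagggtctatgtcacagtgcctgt
Ifih1: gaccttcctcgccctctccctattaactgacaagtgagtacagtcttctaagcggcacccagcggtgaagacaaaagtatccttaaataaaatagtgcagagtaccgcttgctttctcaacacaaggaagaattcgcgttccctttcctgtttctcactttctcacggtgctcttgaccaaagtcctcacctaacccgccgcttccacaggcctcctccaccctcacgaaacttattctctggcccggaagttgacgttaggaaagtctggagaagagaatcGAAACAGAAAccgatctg
Trim21: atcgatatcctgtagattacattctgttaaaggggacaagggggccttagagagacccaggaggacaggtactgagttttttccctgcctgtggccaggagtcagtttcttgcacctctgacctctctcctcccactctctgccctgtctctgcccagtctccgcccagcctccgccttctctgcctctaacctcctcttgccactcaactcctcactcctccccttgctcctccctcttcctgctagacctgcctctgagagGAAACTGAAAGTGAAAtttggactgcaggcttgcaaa
In Irgm1 and Trim21 2 overlapping matches form 1 run, at bases 221 to 236 and 264 to 279 of the window, counted from 1 at its 5′ end. In Gbp2 the match is on the opposite strand, at bases 192 to 201. In Ifih1 it lies at bases 283 to 292. The matches of Ifih1 and Trim21 thus lie after the start, and those of Irgm1 and Gbp2 before it. Cxcl9, past 2-fold in experiment 4 like Irgm1 and Gbp2, had neither core in its window.

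Type I targets stood lower in the ATF4-labelled muscle in experiment 4, while their median was near 0 in experiments 1 to 3. Their class median was -0.08, 0.07, -0.05 and -0.77 in experiments 1 to 4. In experiment 4, 21 of 23 were below 0, as were 42.8% of all probe sets, and 8 were past 2-fold lower, where the background was 1.87%. In experiments 1 to 3, 0 of the 23 were past 2-fold lower, against 1.11%, 1.46% and 0.197% of probe sets. Past 2-fold higher were 0 of the 23 in every experiment, against 0.985%, 1.19%, 0.442% and 2.25% of probe sets in experiments 1 to 4. Over all 4 experiments the median was -0.21, and 17 of 23 were below 0, where the background was 45.5%. By limma, 0 of 23 passed after adjustment (lowest adjusted p = 0.754), against 0.0179% of probe sets, and 2 were lower at an unadjusted p under 0.05, against 2.77%. Without experiment 4 the median of the 23 was 0.01.

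The nuclear factors of this branch differed mainly in experiment 4. Irf7, the factor that amplifies type I interferon production, differed by -0.31, 0.04, 0.43 and -1.23 in experiments 1 to 4. Stat2, which carries the transactivating part of the type I complex, stood at 5.04, 5.14, 5.62 and 4.81 in ATF4-labelled muscles, against 5.09, 5.39, 5.60 and 5.71 in empty vector muscles. Its pair of experiment 4 held the lowest and the highest of the 8 levels, and the groups overlapped. Irf9, the DNA-binding subunit, differed by -0.22, 0.09, 0.11 and -0.34.

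The sensors of foreign nucleic acid were split in size. Zbp1, a sensor of Z-form nucleic acid that can start cell death, stood at 5.76, 6.27, 6.92 and 4.47 in ATF4-labelled muscles, against 5.99, 6.16, 7.10 and 6.30 in empty vector muscles. The gap came from experiment 4, at -1.83, and the groups overlapped. The 3 RNA helicases of this branch followed in the order Ifih1 (-1.39), Ddx58 (-0.65) and Dhx58 (-0.15) in experiment 4. In experiments 1 to 3, Ddx58 and Dhx58 were at 0.00 to 0.27, while Ifih1 lay between -0.21 and 0.15.

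Among the enzymes of ubiquitin and ADP-ribose, the widest gap was that of Parp14. This mono-ADP-ribosyltransferase stood at 5.19, 5.82, 6.68 and 4.87 in ATF4-labelled muscles, against 6.01, 6.30, 6.86 and 7.26 in empty vector muscles. It was lower in 4 of 4 experiments (mean -0.97, SE 0.32, 95% interval -1.70 to -0.24, limma adjusted p = 0.754), and the groups overlapped. Its differences were -0.82, -0.48, -0.19 and -2.39, and its mean without experiment 4 was -0.50 (SE 0.14, limma adjusted p = 0.708). Parp9 and Dtx3l, partners in a complex that modifies histones and viral targets, differed by -1.27 and -0.99 in experiment 4 and stayed between -0.24 and 0.21 in the others.

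Trim21, a cytosolic antibody receptor and ubiquitin ligase, stood at 5.35, 5.52, 5.75 and 4.55 in ATF4-labelled muscles, against 5.46, 5.73, 5.84 and 5.79 in empty vector muscles. It was lower in 4 of 4 experiments, with -0.11, -0.20 and -0.09 in experiments 1 to 3 (mean -0.13, SE 0.10) and -1.25 in experiment 4. Trim25, the ligase that activates the RNA sensor Ddx58, differed by 0.03, 0.14, -0.13 and 0.12, and was 1 of 2 type I targets not lower in experiment 4.

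The antiviral effectors, 11 genes, were below 0 for 5, 4, 6 and 10 of them in experiments 1 to 4. Ifi35, an interferon-induced leucine zipper protein, was lower in 4 of 4 experiments, at 4.22, 4.44, 4.80 and 4.01 in ATF4-labelled muscles, against 4.54, 4.79, 5.002 and 4.90 in empty vector muscles (mean -0.44, SE 0.14, limma adjusted p = 0.754). Samd9l, a growth-restraining antiviral factor, and Ifit2, which binds viral RNA, were past 2-fold lower in experiment 4, at -1.48 and -1.04. Bst2, which tethers budding viruses to the cell surface, differed by -0.33, 0.25, -0.05 and -0.75.

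Several classical effectors had positive or uneven differences. Rsad2, the radical enzyme viperin, differed by 0.35, 0.70, 0.14 and -0.30, with a mean of 0.22 (SE 0.17). Without experiment 4 it was the 1 gene of the 36 higher at an unadjusted p under 0.05, as were 3.35% of probe sets. Oas2, a maker of the 2-5A messenger that activates RNase L, differed by 0.07, 0.07, 0.02 and 0.02, and was the 1 gene of the 36 higher in 4 of 4 experiments, as were 8.25% of probe sets. Ifit1, which binds RNA caps, differed by 0.80, 0.04, -0.81 and -0.63, and the spread of its level was 0.15 among ATF4-labelled muscles and 0.68 among empty vector muscles (SD, n = 4 each). Oasl1, Oasl2, Mx1 and Mx2 had mean differences between -0.21 and 0.00.

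**Figure D2:**
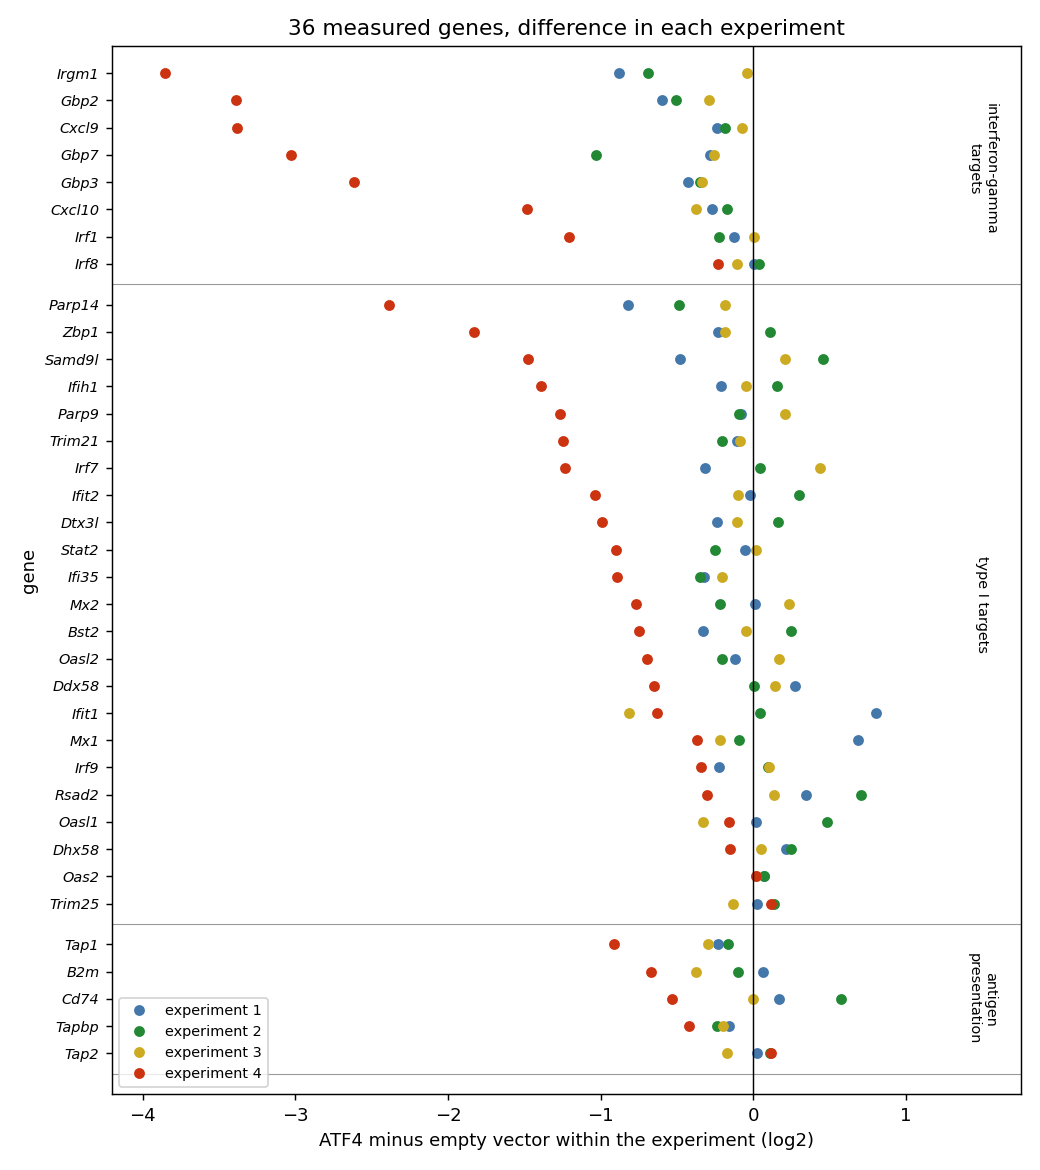
Difference ATF4-labelled minus empty vector within each experiment (log2, horizontal axis) for the 36 measured genes, by class. Points of experiment 4 lie left of 0 for 33 of the 36 and reach -3.85 for Irgm1, while those of experiments 1 to 3 scatter on both sides of 0 for most type I targets.

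The antigen presentation genes had smaller differences, with a median of -0.26 (-0.14 without experiment 4) and 0 of 5 past 2-fold in any experiment. Tap1, a subunit of the peptide transporter into the endoplasmic reticulum, stood at 5.31, 5.58, 5.88 and 4.82 in ATF4-labelled muscles, against 5.55, 5.75, 6.17 and 5.73 in empty vector muscles (mean -0.40, SE 0.15, limma adjusted p = 0.787). Tapbp, tapasin, which bridges the transporter to MHC class I, stood at 5.84, 5.86, 6.03 and 5.49 in ATF4-labelled muscles, against 6.00, 6.10, 6.23 and 5.92 in empty vector muscles (mean -0.26, SE 0.11, limma adjusted p = 0.827). Both were lower in 4 of 4 experiments, and the groups overlapped in both.

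B2m, the light chain of MHC class I, stood at 10.53, 10.48, 10.73 and 9.90 in ATF4-labelled muscles, against 10.47, 10.58, 11.11 and 10.57 in empty vector muscles. Its ATF4-labelled array of experiment 4 was the lowest of the 8 (mean -0.27, SE 0.13, limma adjusted p = 0.846). Tap2, the partner of Tap1, differed by 0.03, 0.11, -0.17 and 0.11, with a mean of 0.02 (95% interval -0.23 to 0.26). Cd74, the invariant chain that guards MHC class II and marks antigen-presenting cells, stood at 7.11, 7.32, 7.77 and 6.23 in ATF4-labelled muscles, against 6.94, 6.74, 7.77 and 6.77 in empty vector muscles. The ATF4-labelled muscle was higher in experiments 1 and 2 and lower in experiment 4, with overlapping groups. Its mean difference was 0.05 (95% interval -0.35 to 0.45, limma adjusted p = 0.975).

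Over the 36 genes, 9 were lower and 0 higher at an unadjusted p under 0.05, by limma. The background was 2.77% of probe sets lower and 3.23% higher. The 9 were Gbp2, Gbp3, Gbp7, Irgm1, Cxcl10, Parp14, Ifi35, Tap1 and Tapbp, and 0 of the 36 passed after adjustment, with these settings or with any other setting tried. Without experiment 4, 7 of the 9 stayed under that p, all but Tap1 and Tapbp, where the background was 2.68% of probe sets lower. The 9 were picked in a fit that includes experiments 1 to 3, so this count is not an independent check. Every ATF4-labelled array lay below every empty vector array for 0 of the 36, against 0.752% of probe sets. On simulated data the fit recovered 75.4% of 2-fold and 13.6% of 1.5-fold differences. There the variances were drawn from the fitted prior and the difference was the same in every pair. The differences of the 36 genes varied between experiments, so these shares do not carry over to them.

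Experiment 4 held most of the lowest levels. For 30 of the 36 genes the ATF4-labelled array of experiment 4 was the lowest of the 8, as for 11.7% of all probe sets. The empty vector array of that experiment was the highest of the 8 for 5 of 8 interferon-gamma targets, 4 of 23 type I targets and 0 of 5 antigen presentation genes, against 17.7% of all probe sets. The mean level of the interferon-gamma targets was 5.87, 6.27, 6.86 and 4.67 in ATF4-labelled muscles, against 6.23, 6.66, 7.04 and 7.06 in empty vector muscles. The array of the ATF4-labelled muscle of experiment 4 also had a narrower spread over all probe sets (SD 1.14) than its partner (SD 1.31). The spreads of experiment 2 were 1.12 (ATF4-labelled) and 1.11 (empty vector). With quantile normalization, which makes the spreads equal, 14 genes were past 2-fold lower in experiment 4, beside 15 without it. The share of all probe sets after that normalization was not computed, and the part of the spread in the differences was not tested.

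Of the 10 genes with the most negative difference in experiment 4, among all 14860, 5 belong to the interferon-gamma class (Irgm1, Gbp2, Cxcl9, Gbp7 and Gbp3) and 2 more are on a list of further interferon-gamma targets (Tgtp1 and Cd274). Of the 100 most negative, 10 were among the 36 genes and 8 on lists of further interferon targets. The 36 genes and those lists were chosen with earlier results of these data known. Tgtp1, a GTPase of the family of Irgm1, had the lowest difference of all genes in that experiment, at -3.97. It was named after its values were seen.

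**Figure D3:**
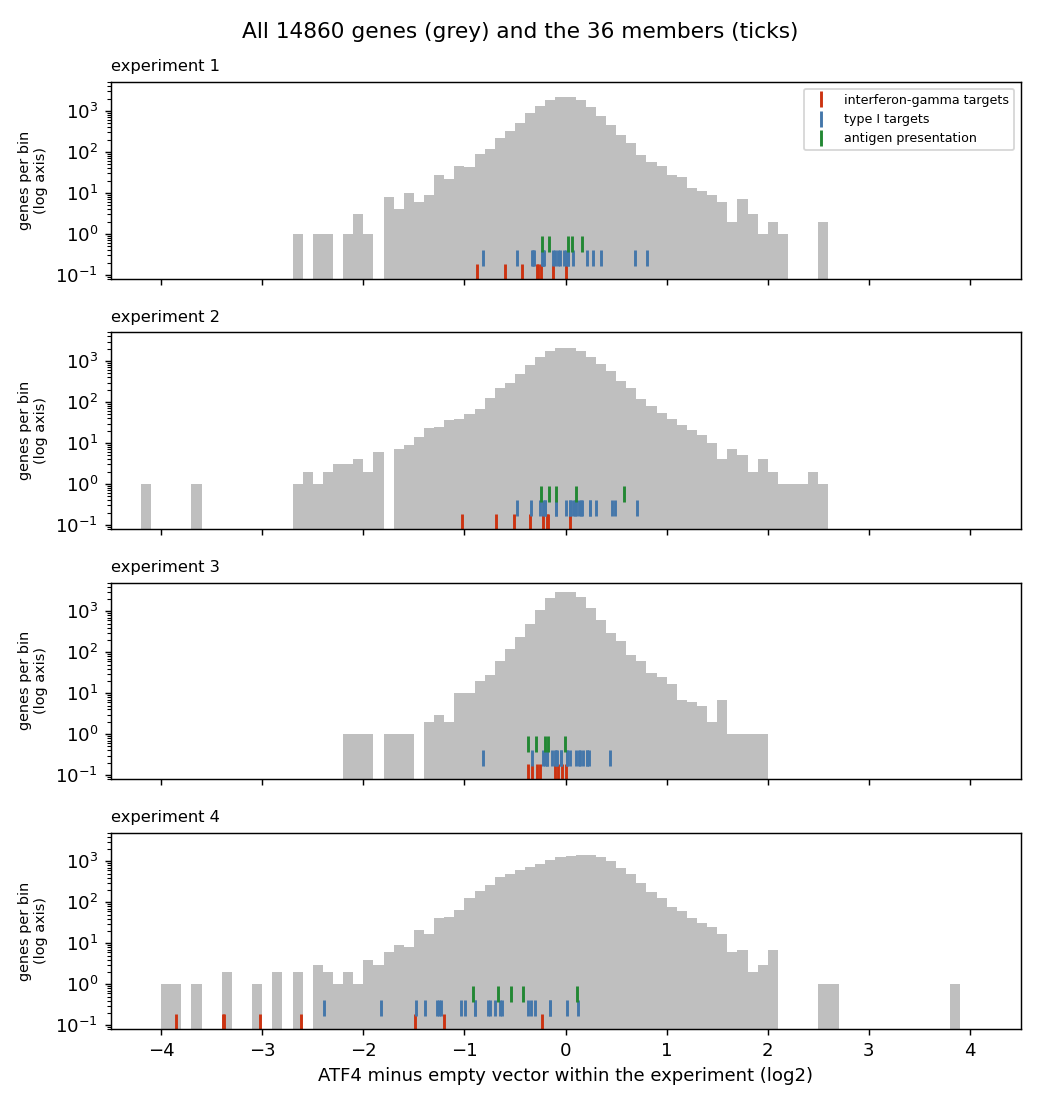
Histograms of the difference ATF4-labelled minus empty vector (log2, horizontal axis) over 14860 genes in each experiment, in grey on a log axis, with ticks for the 36 genes by class. In experiment 4, 5 of the 8 interferon-gamma ticks lie in the far left tail, at -2.61 or below, with a class median of -2.82. In experiments 1 to 3, 7 of the 8 lie left of 0, with class medians of -0.28, -0.29 and -0.18.

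Further genes of the pathway, 82 measured of 120 listed, were read in the same way. Their lists were chosen with earlier results of these data known, so their counts are a description and not an independent check. By limma, 0 of the 82 passed after adjustment, against 0.0179% of probe sets. At an unadjusted p under 0.05, 8 were lower, against 2.77% of probe sets, and 1 was higher, against 3.23%. Of 9 other interferon-gamma targets, 8 had a negative mean difference, as did 45.5% of all probe sets. At an unadjusted p under 0.05, by limma, 5 were lower, against 2.77% of probe sets. The list medians were -0.05, -0.36, -0.21 and -0.96 in experiments 1 to 4. Gbp5, a guanylate-binding protein that promotes inflammasome assembly, differed by -0.73, -0.27, -0.31 and -1.85 (mean -0.79, SE 0.25, limma adjusted p = 0.754). Cxcl11, a chemokine gene of the family of Cxcl9 and Cxcl10, differed by -0.05, -0.45, -0.58 and -0.93. Ifi30, a thiol reductase of the lysosome that prepares antigens, differed by -0.62, -0.36, -0.21 and -0.23, so its gap was no wider in experiment 4 than in experiment 1.

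The next list held 9 measured genes of class I loading and the immunoproteasome, the proteasome form that interferon-gamma induces. Of these, 8 had a negative mean difference, as did 45.5% of all probe sets, and 2 were lower at an unadjusted p under 0.05, against 2.77%. Psmb8, a catalytic subunit of that proteasome, stood at 6.57, 6.85, 7.08 and 5.13 in ATF4-labelled muscles, against 6.98, 7.31, 7.35 and 6.82 in empty vector muscles. It was lower in 4 of 4 experiments (mean -0.71, SE 0.23, limma adjusted p = 0.754), and the groups overlapped. Its partner subunit Psmb10 differed by -0.50, -0.49, -0.10 and -0.32, and the proteasome activator subunit Psme1 by -0.34, -0.36, 0.08 and -0.51.

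Of 16 other interferon targets, 11 had a negative mean difference, as did 45.5% of all probe sets, with list medians of -0.07, 0.14, -0.01 and -0.43. Trim30a, a tripartite motif protein of mouse, differed by -0.41, -0.05, -0.12 and -1.25. Ifi27l2a, a small interferon-induced membrane protein, differed by -0.51, 0.01, -0.00 and -0.66. Lgals3bp, a secreted glycoprotein that binds galectins, differed the other way, by 0.84, 0.63, 0.14 and 0.25 (mean 0.47, SE 0.14).

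Most genes of the MHC class II list had a positive mean difference, but not a positive difference in experiment 4. Of 10 measured, 8 had a positive and 2 a negative mean difference, where 45.5% of all probe sets had a negative one. The list medians were 0.24, 0.20, 0.06 and -0.02, and in experiment 4, 6 of the 10 were below 0, as were 42.8% of all probe sets. The means of the 3 with the smallest p were 0.26 for the protease Lgmn, 0.20 for the protease Ctss and -0.24 for the peptide exchanger H2-DMa. H2-Aa and H2-Ab1, the chains of the class II molecule I-A, were named after their values were seen. They differed by 0.32, 0.53, 0.26 and -0.55 for H2-Aa, and by 0.38, 0.60, 0.17 and -0.82 for H2-Ab1. Cd74 had the same signs in experiments 1, 2 and 4.

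The signalling steps before the targets had smaller medians than the interferon-gamma targets in experiment 4. Ifng, which encodes interferon-gamma, stood at 4.23, 4.99, 4.69 and 4.80 in ATF4-labelled muscles, against 4.28, 4.53, 4.61 and 4.49 in empty vector muscles (mean difference 0.20, SE 0.13, limma adjusted p = 0.846). Its probe set lay at the 58.6 percentile of signal, not far from the array medians of 4.29 to 4.44. Of 9 ligands measured, 6 had a positive mean difference, and the other genes named by smallest p were Ifnb1 (0.42) and Il12a (0.27), with Ifnb1 at the 10.03 percentile of signal. The receptor subunits Ifngr1 and Ifngr2 had mean differences of -0.04 and -0.06, while those of Il10rb, Ifnar1 and Ifnar2 were 0.17, 0.11 and -0.12.

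Among 10 genes of JAK-STAT signalling, the list medians were 0.06, 0.02, -0.04 and -0.52 in experiments 1 to 4. Jak2, a kinase of the interferon-gamma receptor, differed by 0.14, -0.35, -0.38 and -1.20, the mean difference of Stat3 was -0.33, and that of Ptpn2, a phosphatase that turns the signal off, was -0.22. The list of 13 genes that sense nucleic acids and signal onward had medians of -0.01, -0.06, 0.07 and -0.21. Its genes of smallest p were the RNA receptor Tlr3 (mean -0.28), the kinase Tbk1 (-0.24) and the adaptor Myd88 (-0.20).

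Markers of the cells that make or receive interferon were measured in the same arrays. The mean level of 10 T cell markers was 4.60, 4.92, 5.53 and 4.43 in ATF4-labelled muscles, against 4.59, 4.78, 5.41 and 4.36 in empty vector muscles. That mean was not lower in experiment 4, but the list was split, with 7 markers above 0 and 3 below. Its markers of smallest p were Cd3e, a subunit of the T cell receptor complex (mean 0.26), and the costimulatory receptor Cd28 (mean 0.12). In experiment 4 Cd3e differed by 0.27, while Cd3g and Cd3d, of the same complex, differed by -0.55 and -0.47. The mean of 13 macrophage markers was 6.13, 6.16, 6.64 and 5.65 in ATF4-labelled muscles, against 5.81, 5.78, 6.64 and 5.75 in empty vector muscles. The complement gene C1qb (mean 0.55) and the lysosomal membrane gene Laptm5 (mean 0.32) had the smallest p of that list. In experiment 4 the median was -0.22 and 9 of the 13 were below 0, as were 42.8% of all probe sets. Over the 4 experiments 9 had a positive mean difference.

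The mean of 8 natural killer and cytotoxic markers was 4.28, 4.54, 5.04 and 3.93 in ATF4-labelled muscles, against 4.25, 4.49, 5.04 and 4.42 in empty vector muscles, and the list median in experiment 4 was -0.54. Over all experiments the list median was 0.04, and 5 of the 8 markers had a positive mean difference. Gzmb, a protease that cytotoxic cells deliver to their targets, was lower in 4 of 4 experiments, at 3.95, 4.13, 5.03 and 3.37 in ATF4-labelled muscles, against 4.41, 4.72, 5.64 and 4.12 in empty vector muscles (mean -0.60, SE 0.11, limma adjusted p = 0.364). Gzma, its relative, differed by -0.73, -0.36, -0.10 and -1.40 (mean -0.65, SE 0.20, limma adjusted p = 0.754). In experiment 4, 7 of the 8 markers of this list were below 0, as were 42.8% of all probe sets. So were 10 of 11 muscle fibre and 9 of 13 macrophage markers. Fewer were below 0 among T cell (3 of 10), B cell (0 of 6), dendritic cell (3 of 7), neutrophil (2 of 7) and endothelial markers (3 of 9). The part of any of these cells in the differences was not tested.

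The other marker lists had smaller medians or other signs in experiment 4, namely 0.47 for 6 B cell, 0.01 for 7 dendritic cell, 0.25 for 7 neutrophil, 0.04 for 9 endothelial and -0.18 for 11 muscle fibre genes. The markers of smallest p in those lists had mean differences of 0.28 for Cd22 and 0.21 for Ms4a1 (B cell), -0.18 for Clec9a and -0.19 for Ccr7 (dendritic cell), -1.20 for S100a9 and 0.40 for S100a8 (neutrophil), -0.33 for Tek and 0.39 for Esam (endothelial), and -0.13 for Ckm and -0.09 for Pygm (muscle fibre). Cd22 and Ms4a1 lay at the 18.6 and 6.99 percentile of signal. By limma, 0 genes of any marker list passed after adjustment.

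**Figure D4:**
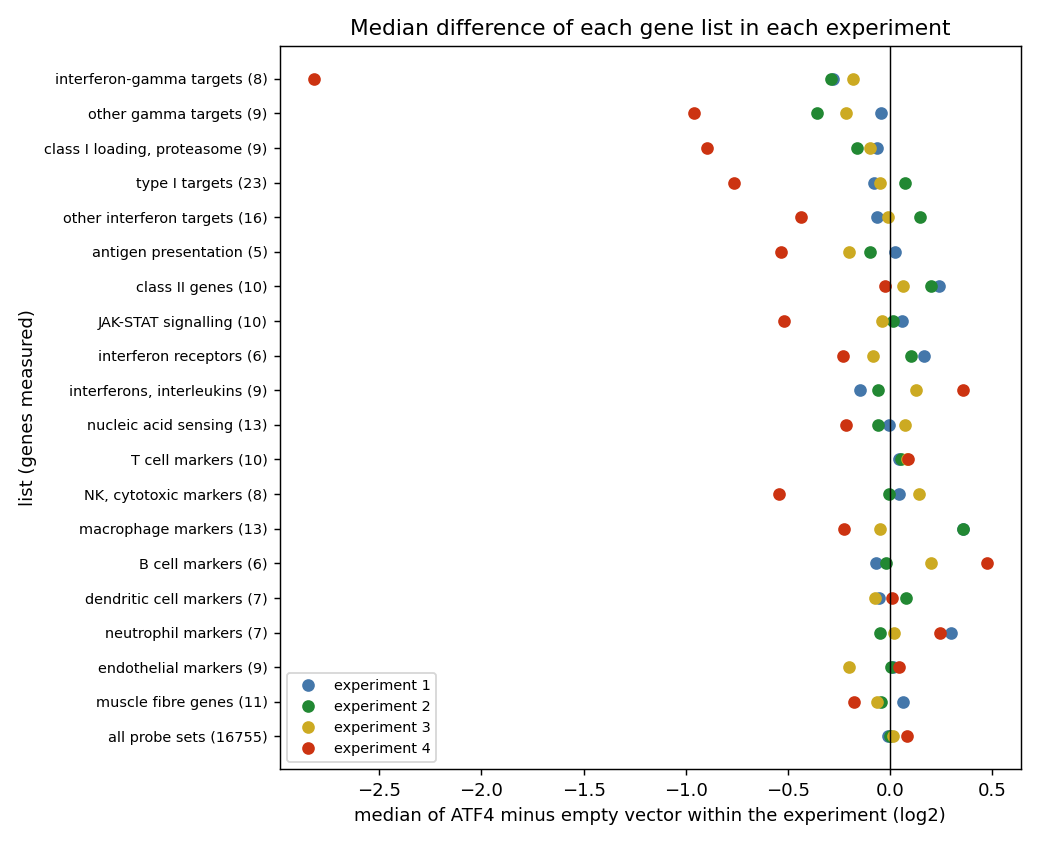
Median difference ATF4-labelled minus empty vector (log2, horizontal axis) of each gene list, with 1 point per experiment and the number of genes measured in brackets. The point of experiment 4 lies at -2.82 for interferon-gamma targets, between -1 and -0.4 for the other target lists and for JAK-STAT signalling, antigen presentation and cytotoxic markers, and at 0.09 for T cell markers.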

How the data were processed

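Per the labels' protocols, RNA of 8 tibialis anterior muscles was amplified, biotin-labelled and put on mouse exon arrays. The authors deposited log2 levels made with RMA, per the submitters' processing notes. The notes also name hg18 with no role, so coordinates come only from the RefSeq table. RMA's version and settings are not known here. The annotation gives 1 gene for 14996 of 16755 probe sets, several for 1019 and none for 740. Correlation between arrays was 0.916 to 0.981, across probe sets.

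The fit used limma 3.58.1 in R 4.3.3 (lmFit, eBayes with trend) on all probe sets, with experiment as a fixed block. P-values were two-sided, adjusted by Benjamini-Hochberg and read at 0.05. The prior had 4.96 degrees of freedom beside 3 residual ones. The pairing comes from the series design, which sets the left against the right muscle. Deviations of paired arrays from their group means correlated with 0.07, 0.31, 0.55 and 0.05 in the 4 experiments. The p-values rest on a gene's spread between experiments, drawn toward the spread of probe sets of similar level. For a gene such as Oas2, with differences of 0.02 to 0.07, the SE of 0.11 comes mostly from that shared spread. In simulated data of 4 pairs with 200 changed probe sets, 4.65% of calls were false. The number of arrays limits the precision, and scanner signals were not used here.

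The 47 genes, the further pathway lists and the marker lists were chosen with earlier results of these data known. The rule names, with all 8 values, the 4 genes of smallest p per class, and by value every gene past 2-fold in an experiment and the other members. It also names 3 genes of smallest p per further pathway list and 2 per marker list. Tgtp1, Cd274, Ifngr1, Ifngr2, H2-Aa and H2-Ab1, and the choice of Stat2, Cxcl9 and Rsad2 for full values, came after values had been seen. Irgm1, whose p ranked 5 in its class, was also given all 8 values outside the rule. Alternatives were a fit with no block, one with a random block (statmod 1.5.0), other variance priors, array weights, 2 further normalizations, removal of dim probe sets, averaging over probe sets of a gene, and removal of single experiments.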

Additional observations from a re-analysis of the deposited data

Results flagged for a closer look

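Dixon's test was run on 78 groups of 4 arrays, and 3 held a value apart from the rest, while chance at 5% gives about 3.9. All 3 are the empty vector muscle of experiment 3. Dhx58 stood at 4.47 there, against 3.82 to 3.92 in the other empty vector muscles. Trim25 stood at 5.58, against 5.16 to 5.22. The mean level of the 5 antigen presentation genes was 7.21, against 6.68 to 6.76.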

How the results depend on the processing

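Under every setting tried, 0 of the 36 genes passed the adjusted threshold. Over 280 refits of the 20 genes named with a rule, adjusted p was 0.481 to 1.00 and 274 values kept their direction. Probe sets past the threshold numbered 3 with the settings of the report, 13 with a random block, 18 with array weights, 0 without trend and 0 with median centring. They numbered 7 and 12 after removal of the dimmest 25% and 50%, and 0 to 2 with 1 experiment left out. Without the replicate block, which ignores the pairing, there were 3, and 6 rather than 9 of the 36 genes were lower at an unadjusted p under 0.05. That count was 7 to 10 with 1 experiment left out.

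The interferon-gamma median was -1.20 to -0.32 with 1 experiment left out and -0.49 with array weights, against -0.95. The type I median was -0.33 to 0.010, and turned its sign without experiment 4, against -0.21. The antigen presentation median was -0.29 to -0.14, against -0.26. Leaving out 1 experiment gave -0.48 to 0.012 for Parp9, -0.58 to 0.063 for Samd9l, -0.50 to 0.054 for Irf7 and -0.39 to 0.061 for Ifit2, each with the positive value without experiment 4. It gave -0.12 to 0.25 for Cd74, negative without experiment 2. Irf7 was at 0.080 with array weights. The cause was not tested. Of the 36 genes, 15 were past 2-fold lower in experiment 4, against 1.87% of all probe sets. The count was 19 after median centring and 14 after quantile normalization, settings applied to it after the data had been seen. The shares of all probe sets under those settings were not computed. Centring moves every difference of experiment 4 down, since its array medians were 4.44 (ATF4-labelled) and 4.29 (empty vector).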

Other observations

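In experiments 1 to 3 alone, the MHC class II list and the interferon-gamma targets lay on opposite sides of 0, with medians of 0.22 and -0.32. The 10 genes of that list include proteases such as Lgmn and Ctss. At an unadjusted p under 0.05, by limma, 4 of the 10 were higher and 1 was lower, against 3.35% and 2.68% of all probe sets, and 0 passed after adjustment. H2-Aa and H2-Ab1 had mean differences of 0.37 and 0.39. The 13 macrophage markers also had a positive median in these experiments, at 0.25, with 4 higher and 0 lower at an unadjusted p under 0.05 by limma. Rsad2 was the 1 of the 36 genes higher at that threshold in these 3 experiments (0.40, SE 0.13, limma adjusted p = 0.773). It stood at 5.62, 5.71, 6.18 and 5.42 in ATF4-labelled muscles, against 5.27, 5.01, 6.04 and 5.72 in empty vector muscles, so experiment 4 had the opposite sign.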
